A study of Mus musculus with 5 samples.

Results

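DNA methylation was measured at the Hox gene clusters of female mouse embryonic fibroblasts (MEFs). Members were 38 named Hox genes of the HoxA, HoxB, HoxC and HoxD clusters on chromosomes 6, 11, 15 and 2. A CpG position belonged to a member when it lay within the gene or up to 2 kb upstream of it (GENCODE M21, mm10) and had at least 10 calls in every library on the allele described. By this rule 312 of 165153 such positions of the whole series were Hox positions on the domesticus allele, and 377 of 170286 on the castaneus allele. Of the 38 members, 28 had a position on at least 1 allele, 23 had one on both and 10 had none. The 10 without a position were Hoxa2, Hoxa6, Hoxb1, Hoxb5, Hoxb8, Hoxc6, Hoxc8, Hoxc13, Hoxd9 and Hoxd12, so nothing is said of them here. Some windows overlap, and 17 domesticus and 46 castaneus positions lay in the windows of several members.

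The 5 libraries came from MEFs of E13.5 embryos of domesticus dams and castaneus (CAST) sires, named 129/CAST in the paper. Every library carried the Xist-deltaA allele (Xist-deltaA/+). The 3 Female control libraries were Setdb1+/+ and were transduced with a Nonsilencing hairpin. The 2 Setdb1 depleted libraries were Setdb1+/gt, heterozygous for a gene trap, and were transduced with shSetdb1, so genotype and hairpin differed together and cannot be told apart. All cells had been transduced with retrovirus and selected with puromycin. Setdb1 is a methyltransferase of lysine 9 of histone H3, and the comparison asks whether DNA methylation at these clusters differed when it was depleted. No transcript or protein was measured in these libraries, so the depletion was not checked here. Nothing in the labels says whether the libraries of a group came from separate embryos, so p-values measure only the spread between these libraries, which may be technical.

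Methylation is given as % mC, the share of calls at a position that were methylated, each call being the state of 1 CpG in 1 read. Enhanced reduced representation bisulphite sequencing (eRRBS) reads mostly CpG-rich fragments that end at MspI sites, so the values describe those parts of the clusters that were sampled. Each library held 9440874 to 10558931 calls on an allele, of which 18314 to 23218 lay at Hox positions, with a median of 50 calls per Hox position and library on domesticus and 53 on castaneus. At the window of Zrsr1, whose promoter island is methylated on the maternal allele, mC was 93.4 to 96.6% on domesticus and 1.05 to 5.03% on castaneus, which places domesticus as the maternal and castaneus as the paternal allele in all 5 libraries. As marks of cell identity, mC within 1 kb of the start of fibroblast genes could be read on domesticus for 1 of 13 markers (Vim, at most 0.202%) and on castaneus for 2 of 13, where it reached 11.9%. Starts of epithelial, endothelial and neural markers that were covered lay between 0 and 5.85%, no start of the 5 blood cell markers was covered, and those of the pluripotency genes Pou5f1 and Zfp42 lay between 38.8 and 74.4%. Over whole windows, the blood cell markers that could be tested were 3 on domesticus and 2 on castaneus, and all were higher in the mean of the depleted libraries, by 3.87 to 13.2 points (median 7.92) and by 8.52 to 11.1 points (median 9.82). None of them stood at an unadjusted p under 0.05 in the quasi-binomial model (lowest adjusted p = 1). Fibroblast markers were higher in 2 of 4 windows on domesticus and 1 of 5 on castaneus (median 1.27 and -2.17 points). The other lists had 2 to 4 windows tested on each allele, with both higher and lower means after depletion, except that both castaneus endothelial windows were lower. Their differences ran from -3.79 to 0.891 points on domesticus and -4.62 to 6.37 points on castaneus for epithelial markers, -0.14 to 9.51 and -2.05 to -0.363 points for endothelial, -2.71 to 5.82 and -2.72 to 0.274 points for neural and -28.2 to 6.68 and -5.92 to 1.01 points for pluripotency markers. At an unadjusted p under 0.05 stood 1 endothelial window (higher), 1 neural and 1 pluripotency window (both lower) on domesticus and 1 epithelial window (higher) on castaneus, and none passed after adjustment (lowest adjusted p = 0.915). Cells of different types cannot be separated in such libraries. The domesticus and castaneus values come from the same libraries and are not independent of each other.

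Hox genes encode homeodomain transcription factors that give cells their position along the head-to-tail axis and the limbs. The genes of a cluster lie in the order of their paralogue numbers, low numbers acting towards the head and high numbers towards the tail and the distal limb. In many cell types their CpG-rich DNA carries little methylation, and silent members are held by Polycomb proteins and H3K27me3. DNA methylation over the gene bodies and between the promoters of these clusters is known to vary between tissues.

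The reference sequences of the most and the least methylated parts of the windows show what was measured. They are taken from the RefSeq mm10 plus strand, with 5 bases either side of each stretch, and the CpGs measured on at least 1 allele are in capitals. A stretch is a run of measured positions no more than 100 bp apart, tested when it held at least 3. Since the reference is a domesticus strain, castaneus bases may differ. The first 4 lie in or near Hoxd3, the most methylated member with many positions. The next 3 are the stretches of Hoxa3, Hoxa9 and Hoxb3 with the highest control mean among those with at least 3 positions. The last 2 lie in coding exons and were among the least methylated of the stretches with at least 12 positions on both alleles. Stretches that overlap a UTR are not shown.
Hoxd3 intron, chr2:74738909-74739072: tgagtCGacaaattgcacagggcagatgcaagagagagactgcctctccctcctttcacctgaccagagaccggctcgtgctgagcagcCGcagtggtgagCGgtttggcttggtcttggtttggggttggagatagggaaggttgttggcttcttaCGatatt
Hoxd3 intron, chr2:74736442-74736509: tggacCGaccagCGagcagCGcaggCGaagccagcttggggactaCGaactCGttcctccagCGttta
Hoxd3 intron, chr2:74740439-74740510: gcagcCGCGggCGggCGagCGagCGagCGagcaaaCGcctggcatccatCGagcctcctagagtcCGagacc
Hoxd4 coding exon and Hoxd3 intron, chr2:74727567-74727606: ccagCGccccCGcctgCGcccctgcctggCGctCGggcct
Hoxa3 non-coding exon, chr6:52200519-52200539: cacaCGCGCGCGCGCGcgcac
Hoxa9 non-coding exon, chr6:52229268-52229319: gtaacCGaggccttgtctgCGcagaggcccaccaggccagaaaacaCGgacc
Hoxb3 coding exon, chr11:96346098-96346140: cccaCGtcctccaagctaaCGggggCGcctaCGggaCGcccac
Hoxa4 coding exon, chr6:52191386-52191451: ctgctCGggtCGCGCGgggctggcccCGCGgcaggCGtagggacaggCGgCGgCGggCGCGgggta
Hoxa11 coding exon, chr6:52245048-52245144: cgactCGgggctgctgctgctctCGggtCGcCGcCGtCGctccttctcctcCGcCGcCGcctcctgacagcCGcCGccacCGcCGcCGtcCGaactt
The first Hoxd3 stretch holds 6 CpGs in 164 bases, whereas the low stretch of Hoxa11 holds 16 CpGs in 97 bases. The Hoxa3 stretch is a simple CG dinucleotide repeat.

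The Hox clusters were sparsely methylated in both groups. On domesticus, the mean over Hox positions was 4.95, 5.77 and 4.46% in the Female control libraries and 5.99 and 5.34% in the Setdb1 depleted libraries. On castaneus it was 5.21, 6.02 and 5.82% in the controls, against 6.71 and 6.47% after depletion. The groups overlapped on domesticus (5.06% ± 0.665 against 5.66% ± 0.461, SD, n = 3 and 2, difference 0.601 points, two-sided exact permutation p = 0.4). On castaneus both depleted libraries lay above all controls (5.68% ± 0.419 against 6.59% ± 0.174, difference 0.908 points, exact permutation p = 0.1, the smallest p that 10 labellings of 3 and 2 libraries allow, so that no permutation test of the groups here can pass 0.05). The castaneus difference fell to 0.119 points with calls pooled over positions (exact permutation p = 0.8) and to 0.13 points with at least 40 calls (exact permutation p = 0.9). Leaving out 1 library moved the domesticus difference to 0.275 points without depleted library 1, 0.300 points without control 3 and 0.958 points without control 2. It was 0.331 points with more than 20 calls and 0.96 points with both strands of a CpG summed. Without the Hoxd3 window, an alternative chosen after seeing the data, the difference was -0.606 points on domesticus (exact permutation p = 0.1) and 0.0514 points on castaneus (exact permutation p = 0.8).

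The mean level was lower than that of other genes in every library, while the median position was much alike. The median control level per position was 1.75% at Hox positions against 1.79% at all positions on domesticus, and 1.13 against 1.44% on castaneus. Windows of all other autosomal genes averaged 25% ± 0.207 on domesticus and 24.3% ± 0.190 on castaneus in the controls (SD, n = 3). Hox positions lay 19.7 points lower on domesticus and 18.2 points lower on castaneus, averaged over the 5 libraries (SD 0.548 and 0.623), in 5 of 5 libraries on each allele (two-sided exact sign-flip permutation p = 0.062 on each, the smallest that 5 libraries allow). With at least 40 calls the gap was -10.6 points on domesticus and -10.5 points on castaneus. Homeobox developmental regulators outside the clusters were closer, with 8.46% on domesticus and 7.37% on castaneus in the controls, and Hox positions were lower by 3.02 and 1.28 points in 5 of 5 libraries (exact sign-flip permutation p = 0.062 on each). Without the Hoxd3 window these gaps were -4.97 and -3.57 points. Forkhead, T-box, Sox and Gata genes, also developmental transcription factors, averaged 14.9 and 14.4%. Positions without a single methylated call in any library made up 15.4% of Hox positions on domesticus and 30% on castaneus, against 40.7 and 41.3% of the positions of all other windows, and only 8.01 and 9.81% of Hox positions exceeded 20% mC, against 31.3 and 30.4%. Hox positions with a mean below 5% made up 76.3% on domesticus and 72.7% on castaneus, against 72.7 and 75.2% of the positions of other homeobox regulators. Of the latter, 11.9 and 9.74% exceeded 20% mC. By these shares the Hox positions were thus not lower than those of other homeobox regulators on castaneus.

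By cluster, HoxA was the lowest on domesticus in the mean over the libraries and HoxC the highest, while on castaneus HoxA was the lowest and HoxD the highest. HoxC lay above the other clusters on domesticus by 4.03 points, but by -2.89 points with at least 40 calls. HoxA averaged 3.94% ± 0.413 in the controls on domesticus (82 positions) and 4.22% ± 0.875 on castaneus (144 positions). HoxB averaged 4.91% ± 1.40 (80 positions) and 6.03% ± 1.47 (72 positions). HoxC rested on 14 and 17 positions and averaged 8.56% ± 1.30 and 4.62% ± 1.09. HoxD averaged 5.47% ± 1.51 (136 positions) and 7.10% ± 1.01 (144 positions). HoxA lay below the other 3 clusters together in 5 of 5 libraries on each allele, by 2.07 points on domesticus and 2.93 points on castaneus (exact sign-flip permutation p = 0.062 on each, adjusted p = 0.125 over 8 tests). HoxD lay above the others on castaneus by 3.14 points in 5 of 5 libraries (exact sign-flip permutation p = 0.062, adjusted p = 0.125) and on domesticus by 1.86 points in 4 of 5 (exact sign-flip permutation p = 0.188, adjusted p = 0.3). With more than 20 calls, HoxA lay below the others on domesticus by 0.891 points and on castaneus by 4.70 points, and HoxD above them on domesticus by 0.0895 points. Both orders turned without the Hoxd3 window. HoxD then lay below the others, by 2.97 points on domesticus and 3.44 points on castaneus, and HoxA above them by 0.590 and 0.826 points.

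**Figure D1:**
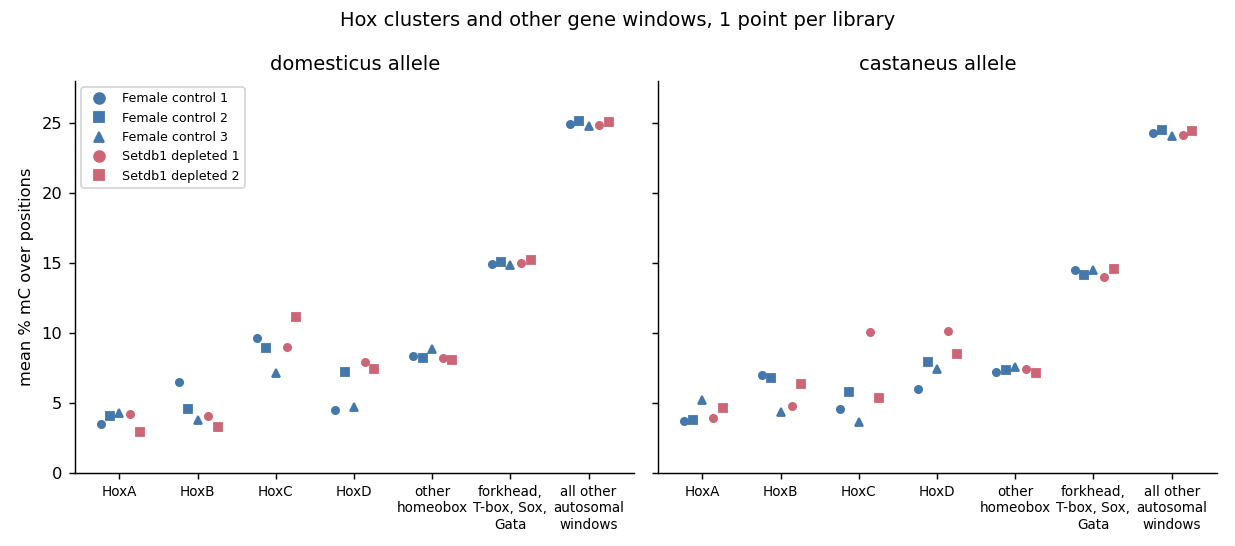
Mean % mC over positions (y axis) for the 4 Hox clusters and 3 sets of other gene windows (x axis), 1 point per library, blue for Female control and red for Setdb1 depleted, domesticus allele left and castaneus allele right. All Hox clusters lie below the 24 to 25% of other autosomal windows, and in HoxD both depleted points lie above all control points on each allele.

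Between the groups, HoxD was the cluster in which the libraries separated on both alleles. On domesticus it read 4.47, 7.21 and 4.72% in the controls, against 7.93 and 7.43% after depletion, and control 2 lay nearer to the depleted libraries than to the other controls. On castaneus it read 5.97, 7.92 and 7.42% in the controls, against 10.1 and 8.50% after depletion. The difference was 2.21 points on each allele (exact permutation p = 0.2 on domesticus and 0.1 on castaneus, adjusted p = 0.533 over 8 tests). On castaneus it fell to 0.547 points with calls pooled (exact permutation p = 0.5) and 0.736 points with at least 40 calls (exact permutation p = 0.3). Without the Hoxd3 window it was -0.543 and -0.0631 points. The other clusters overlapped between the groups on both alleles, with differences of -0.399 and 0.0440 points for HoxA, -1.27 and -0.475 points for HoxB and 1.47 and 3.07 points for HoxC, on domesticus and castaneus respectively. The HoxB difference on domesticus was -0.491 points without control 1. The HoxC difference was 0.407 points on domesticus without depleted library 2 and -0.260 points with at least 40 calls. On castaneus it was 0.706 points without depleted library 1, 5.43 points without depleted library 2 and -0.472 points with more than 20 calls. Windows of blood cell markers also had higher means after depletion on both alleles, as given above, and the part of these and the other marker lists in the HoxD difference was not tested.

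Hoxd3, a gene of the anterior part of HoxD that patterns the first cervical vertebrae, stood apart within its cluster. Pooling the calls of its 27 domesticus positions, mC was 15.1, 30.4 and 12.9% in the controls, against 37.8 and 33% after depletion, on 945 to 1173 calls per library. The depleted libraries were the highest of the 5, but control 2 came within a few points of them while the other 2 controls were lower by more than 15 points, so the controls themselves spread widely (19.5% ± 9.52 against 35.4% ± 3.37, difference 15.9 points, quasi-binomial model across all windows, p = 0.00406, adjusted p = 0.767). On castaneus, 36 positions gave 19.4, 26.0 and 23.6% in the controls, against 33.7 and 28.2% after depletion (difference 7.97 points, quasi-binomial model across all windows fitted with limma moderation, p = 0.0111, adjusted p = 0.912). No control reached the depleted libraries there either. The group mean was higher in the depleted libraries at 26 of 27 domesticus positions and at 30 of 36 castaneus positions, though neighbouring positions share reads and are not independent. This count does not mean that the groups separated at each position. At many domesticus positions control 2 lay above a depleted library, as at 24.52 kb, where it read 25.6% against 13.1 and 18.2% after depletion.

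**Figure D2:**
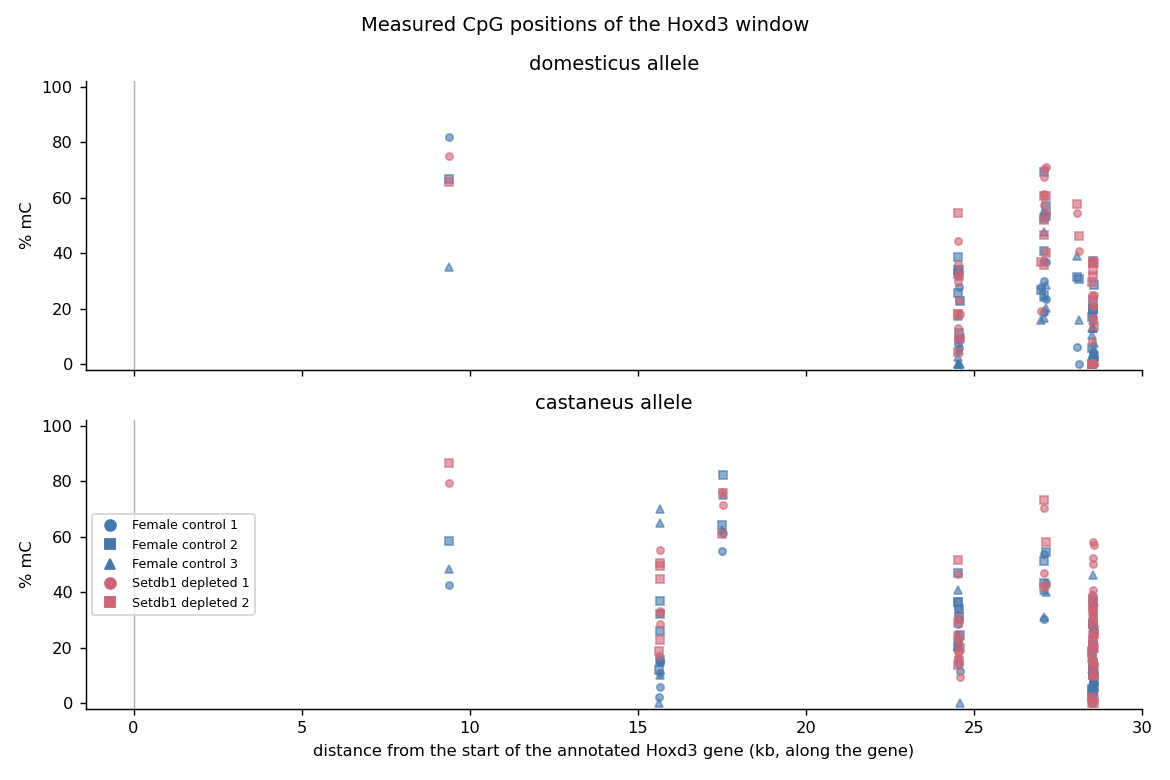
mC (y axis, %) at each measured CpG position of the Hoxd3 window against the distance from the start of the annotated gene (x axis, kb), 1 point per position and library, blue for Female control and red for Setdb1 depleted, domesticus allele above and castaneus allele below. Measured positions lie in a few short groups between 9.39 and 28.6 kb, with control means over 20% at 10 of 27 domesticus and 19 of 36 castaneus positions, and red points mostly above blue ones on domesticus.

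The stretches of the Hoxd3 window differed among themselves. All 3 intron stretches shown above lie within 1 kb of an annotated Hoxd3 start, inside introns of longer transcripts. Some runs of 1 or 2 positions read higher than these, with control means up to 61.2% on domesticus and 66.7% on castaneus. The most methylated stretch with at least 3 positions was that at chr2:74738914-74739067, with 10 CpGs in the surrounding 300 bp. On domesticus it read 30.8, 47.8 and 23% in the controls, against 60.6 and 53.6% after depletion (difference 23.3 points, quasi-binomial p = 0.000693, adjusted p = 0.321). On castaneus, 3 positions of it read 42.5, 49.6 and 37.2% against 53.2 and 57.6% (difference 12.3 points, quasi-binomial p = 0.133, adjusted p = 1). Both depleted libraries thus lay above the controls on both alleles. The stretch at chr2:74740444-74740505 read 13.8, 14.5 and 17.2% in the controls, against 30.6 and 18.7% after depletion on castaneus (difference 9.49 points, quasi-binomial p = 0.00203, adjusted p = 0.607). On domesticus it read 2.28, 17.4 and 10.8% against 17.1 and 24.1%, with control 2 inside the range of the depleted libraries. The stretch at chr2:74736447-74736504 showed no such order. It read 14.4, 28.4 and 3.57% against 28.1 and 20.8% on domesticus, and 23.4, 32.8 and 20.5% against 22.3 and 26.2% on castaneus, where the difference was -1.30 points.

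Hoxd4, which acts in the neck region beside Hoxd3, had 1 domesticus position and 6 castaneus positions, all shared with the Hoxd3 window. Its castaneus control mean was the highest of any member with at least 3 positions, at 13.2, 27.3 and 35.7% in the controls, against 39.9 and 39.9% after depletion. Both depleted libraries were highest, but the controls spread over more than 20 points (difference 14.5 points, quasi-binomial p = 0.0150, adjusted p = 0.924). The stretch at chr2:74727572-74727601, in the coding exon of Hoxd4, read 9.95, 24.6 and 32% against 33.5 and 37.3% (difference 13.2 points, quasi-binomial p = 0.00399, adjusted p = 0.691).

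Outside Hoxd3 and Hoxd4, most HoxD genes were low. Hoxd8 was by control mean the lowest member of its cluster on both alleles, with a highest library of 0.262% on domesticus and 0.527% on castaneus. On castaneus its controls read 0.527, 0.446 and 0.471% and its depleted libraries 0.0563 and 0.205%, so here the depleted libraries were both lower (difference -0.351 points, quasi-binomial p = 0.0612, adjusted p = 1). Hoxd11 and Hoxd13, which shape the forearm and the digits, and Hoxd1, known from sensory neurons, stayed at or below 3.26% in every library on both alleles. Hoxd10, a gene of the lumbar spinal cord and hindlimb, lay between 2.54 and 5.46% on domesticus and reached 8.39% in depleted library 1 on castaneus, while the other 4 libraries lay between 1.97 and 3.76% (difference 2.69 points, quasi-binomial p = 0.177, adjusted p = 1), and without that library the difference was -0.406 points.

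In HoxA, Hoxa9, a regulator of blood progenitors and of the posterior trunk, had the highest control mean on both alleles. It read 7.34, 9.71 and 7.54% in the controls, against 6.50 and 9.52% after depletion on domesticus. On castaneus it read 17.7, 14.2 and 14.3% against 11.5 and 15.7%. The groups overlapped on both alleles. Its most methylated stretch with at least 3 positions on castaneus lay in a non-coding exon at chr6:52229273-52229314, and read 26.2, 19.1 and 23.8% against 22.2 and 15.6%. On domesticus an intron stretch at chr6:52224963-52225211 read 8.16, 15 and 9.11% against 11.5 and 9.68%. By control mean, the lowest members with at least 3 positions were Hoxa4 on domesticus (0.840, 0.359 and 0.891% against 3.24 and 0.129%) and Hoxa11, needed for the forearm and the uterus, on castaneus. Hoxa11 castaneus was read at 0% in controls 1 and 2, which allows up to 2.29 and 1.02%, at 0.741% in control 3 and at 1.86 and 1.03% in the depleted libraries. Hoxa13, which acts in the distal limb and the urogenital tract, had 40 castaneus positions and stayed at or below 2.23%. Hoxa5 and Hoxa7 stayed at or below 1.20% on castaneus.

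Hoxa3, needed for the thymus and parathyroid, shared 12 of its 28 domesticus and 37 of its 51 castaneus positions with Hoxa4 or, on castaneus, also Hoxa5. Its pooled level was low (0.231 to 3.98% on domesticus, 1.41 to 5.47% on castaneus). On castaneus the positions shared with Hoxa4 read 0.163 to 1.20%, and those shared with Hoxa5 at most 0.8%. The castaneus level also includes the CG repeat at chr6:52200524-52200534, which lies in no other member window. On castaneus this stretch read 34.0, 40.9 and 51.1% in the controls, against 45.8 and 61.0% after depletion. The groups overlapped (difference 11.4 points, quasi-binomial p = 0.107, adjusted p = 1), and the difference was 3.85 points without depleted library 2 and 19.0 points without depleted library 1.

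In HoxB, the highest members by control mean were Hoxb3 on domesticus and Hoxb9 on castaneus. Hoxb3, an anterior gene of the hindbrain and pharyngeal arches, was read at 5 positions of a coding exon on domesticus, at 27.6, 18.5 and 7.31% in the controls, against 14.4 and 14% after depletion. The depleted libraries lay within the wide range of the controls. Hoxb9, a gene of the thoracic skeleton and the mammary gland, read 13.8, 8.45 and 6.69% against 6.45 and 5.80% on domesticus, where both depleted libraries were the lowest of the 5 (difference -3.50 points, quasi-binomial p = 0.0833, adjusted p = 1). On castaneus it read 15, 12.8 and 8.67% against 10.7 and 14.4%, and the groups overlapped. Most of this came from an intron stretch at chr11:96272690-96272765, which on domesticus read 18.6, 10.8 and 8.62% against 8.98 and 8.54%. The lowest with at least 3 positions were Hoxb2, a hindbrain gene, on domesticus (0.310, 2.18 and 0.692% against 0.457 and 0.670%) and Hoxb7 on castaneus, at or below 1.53%.

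HoxC was read at few positions, and its values are the least certain. By control mean, Hoxc4 was the highest member with at least 3 positions on both alleles and Hoxc5 the lowest. On domesticus its 4 intron positions at chr15:103027103-103027162 read 10.6, 13.6 and 10.9% against 3.33 and 8%, both depleted libraries being lower on 44 to 254 calls per library (difference -6.07 points, quasi-binomial p = 0.333, adjusted p = 1). On castaneus they read 6.25, 14.3 and 8.70% against 10.3 and 12.5% and overlapped. Hoxc5 read 6.85, 5.48 and 2.99% against 6.45 and 8.95% on domesticus, and 0.240, 0.847 and 0.483% against 4.27 and 0.789% on castaneus. It shared 4 of 7 domesticus and 3 of 8 castaneus positions with other members, among them the 3 positions of Hoxc9 given next. Its castaneus coding-exon stretch, outside those, stayed at or below 0.877% in every library. Hoxc9, a gene of thoracic identity, had the largest castaneus difference of any member, but it came from 1 library. Its 3 positions at chr15:102975680-102975725, in an intron of Hoxc5, read 1.64 and 6.25% in controls 1 and 2 and 0% in control 3, which allows up to 5.26%, against 35.7% in depleted library 1 and 2.94% in depleted library 2 (34 to 61 calls). Without depleted library 1 the difference was 0.311 points. On domesticus the same positions read 8.89, 6.06 and 1.72% against 17.5 and 14.8%, without overlap (difference 10.6 points, quasi-binomial p = 0.146, adjusted p = 1).

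**Figure D3:**
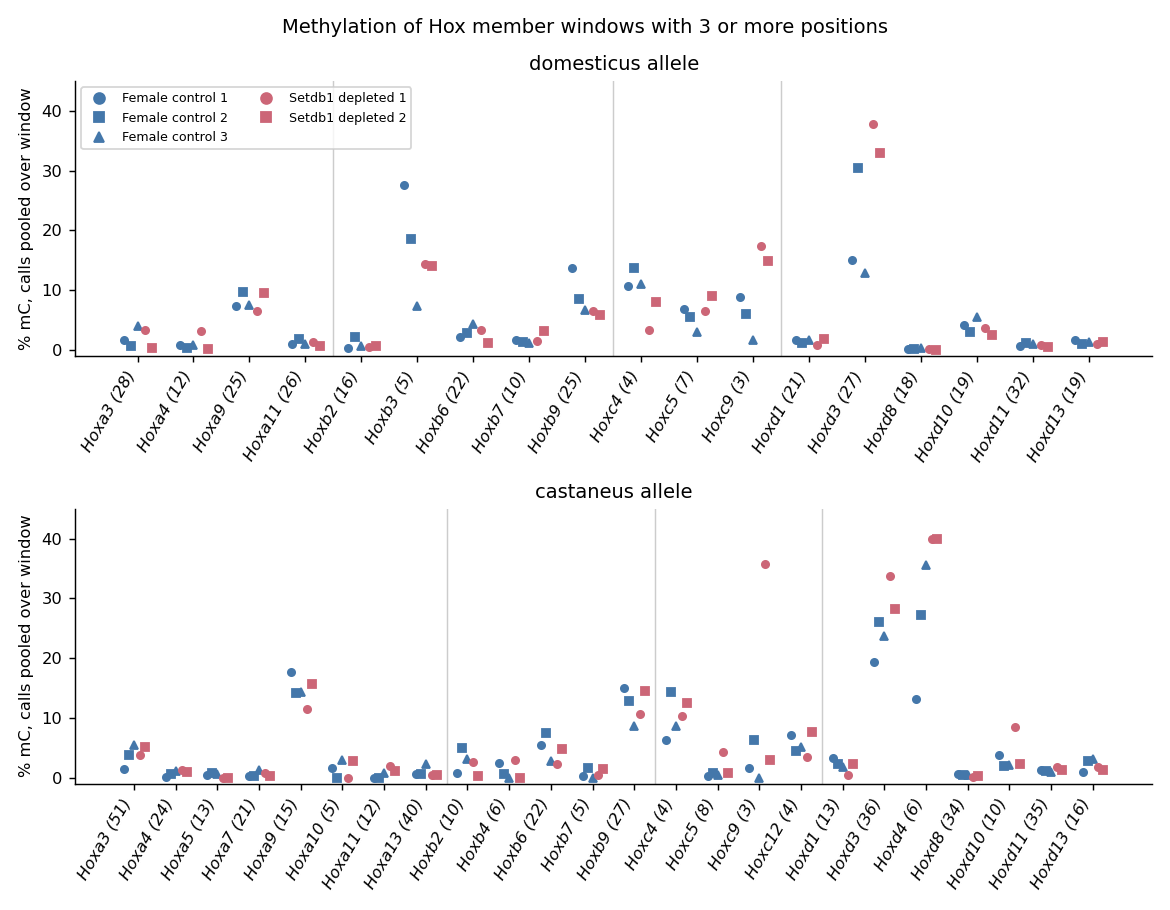
% mC with calls pooled over each member's window (y axis) for members with at least 3 positions, ordered by cluster and paralogue number with the number of positions in brackets (x axis), 1 point per library, blue for Female control and red for Setdb1 depleted, domesticus allele above and castaneus allele below. Control means lie below 5% in 11 of 18 members on domesticus and 17 of 24 on castaneus, and Hoxd3 on domesticus and Hoxd4 on castaneus have the highest control means.

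Counted over members, 18 could be tested on domesticus and 24 on castaneus, that is, had at least 3 positions. Control means were below 5% in 11 of the 18 and 17 of the 24, and above 10% in 3 and 4. No member passed the threshold (quasi-binomial model, Benjamini-Hochberg adjusted p under 0.05 over all windows) on either allele. Of all windows tested, 0.0158% passed on domesticus and 0.0303% on castaneus. At an unadjusted p under 0.05 stood 1 of 18 members on domesticus and 2 of 24 on castaneus, against 4.54 and 4.42% of all windows. These were Hoxd3 on both alleles and Hoxd4 on castaneus. limma on log2 ratios called none, and Fisher's exact test on calls pooled within groups, which ignores the spread between libraries, called 3 and 12, against 18.8 and 19.1% of all windows. Groups did not overlap, depleted higher, in 2 domesticus and 3 castaneus members, against 9.26 and 8.94% of all windows, and depleted lower in 2 and 3, against 9.66 and 9.78%. The median difference was -0.236 points over the domesticus members and 0.335 points over the castaneus members, against -0.00746 and -0.00541 points over all windows.

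Among stretches, none of 25 domesticus and 37 castaneus Hox stretches passed the threshold, against 0.0475 and 0.0414% of all stretches. At an unadjusted p under 0.05 stood 2 and 8 of them, against 4.2 and 4.22% of all stretches. The castaneus count fell to 3 without depleted library 1 and to 5 without control 2. The 2 domesticus ones, both in Hoxd3, were higher in the depleted libraries, and of the 8 castaneus ones 3 were higher and 5 lower. limma called none and Fisher's exact test 5 and 10, against 10.2 and 10.4%. The groups were separated, depleted higher, in 2 and 6 stretches, against 8.2 and 8.09% of all stretches, and depleted lower in 2 and 5, against 8.29 and 8.15%. Of the 5 lower castaneus stretches at an unadjusted p under 0.05, the largest difference was at chr6:52259259-52259341 in the Hoxa13 intron, which read 2.82, 5.28 and 17.3% against 0.851 and 4.35% (difference -5.87 points, quasi-binomial p = 0.0414, adjusted p = 1). Control 3 alone was high in it. In the other lower ones the groups did not overlap. At chr11:96352972-96353016 in Hoxb2 the controls read 0.562, 4.68 and 3.39%, against 0 and 0% after depletion (upper limit 0.893% each). At chr2:74762718-74762771 beside Hoxd1 they read 3.45, 2.68 and 2.63%, against 0 and 0% (upper limits 1.44 and 1.47%). Those at Hoxa5 and Hoxd8 stayed at or below 0.8% in every library. All of these stretches were named after their values were seen. No single position passed, of 312 and 377, against 0.0163 and 0.00176% of all positions. At an unadjusted p under 0.05 stood 5 and 10, against 2.3 and 2.39%, limma called none, and Fisher's exact test called 6 and 9, against 2.48 and 2.48%.

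Leaving out control 2, whose Hoxd3 level was nearest to the depleted libraries, made 1 member and 2 stretches pass on domesticus, all higher in the depleted libraries. These were Hoxd3 (difference 21.4 points, quasi-binomial model, adjusted p = 0.00385) and its stretches at chr2:74738914-74739067 (30.2 points, adjusted p = 0.00445) and chr2:74740444-74740504 (14.1 points, adjusted p = 0.046). Of all windows 0.0633% and of all stretches 0.216% passed without that library. With all 5 libraries none of these passed, nor with any other library left out. Because control 2 was the control nearest to the depleted libraries at Hoxd3, leaving it out had to widen the difference there. These adjusted p-values are therefore not evidence of a difference.

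By paralogue number, groups 3 and 9 stood out among those with at least 20 positions on an allele, as the plot by number shows. Paralogue 3 (Hoxa3 and Hoxd3 on both alleles, and Hoxb3 on domesticus alone) averaged 11.7% ± 3.51 in the controls on domesticus over 60 positions and 13.6% ± 2.41 on castaneus over 87 positions, and 17.3 and 18.0% in the depleted libraries. Its libraries did not overlap between the groups, with 10.3, 15.7 and 9.06% against 18.5 and 16.1% on domesticus, and 10.8, 14.8 and 15.2% against 18.5 and 17.5% on castaneus. Of its genes only Hoxd3 was separated, since Hoxa3 and Hoxb3 overlapped on domesticus (differences -0.311 and -3.61 points), as did Hoxa3 on castaneus (0.890 points). The positions of paralogue 3 include those that Hoxa3 and Hoxd3 share with Hoxa4, Hoxa5 and Hoxd4. Paralogue 9 averaged 8.55% ± 2.19 and 11.9% ± 2.01 in the controls and overlapped between the groups. Paralogues 7, 8 and 11 were low, at 1.11, 0.178 and 1.09% on domesticus and 0.494, 0.459 and 0.864% on castaneus, and paralogue 13 lay at 2.26 and 1.67%. Along the clusters the level thus neither rose nor fell steadily with the number. Paralogue 12 rested on 1 and 4 positions.

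**Figure D4:**
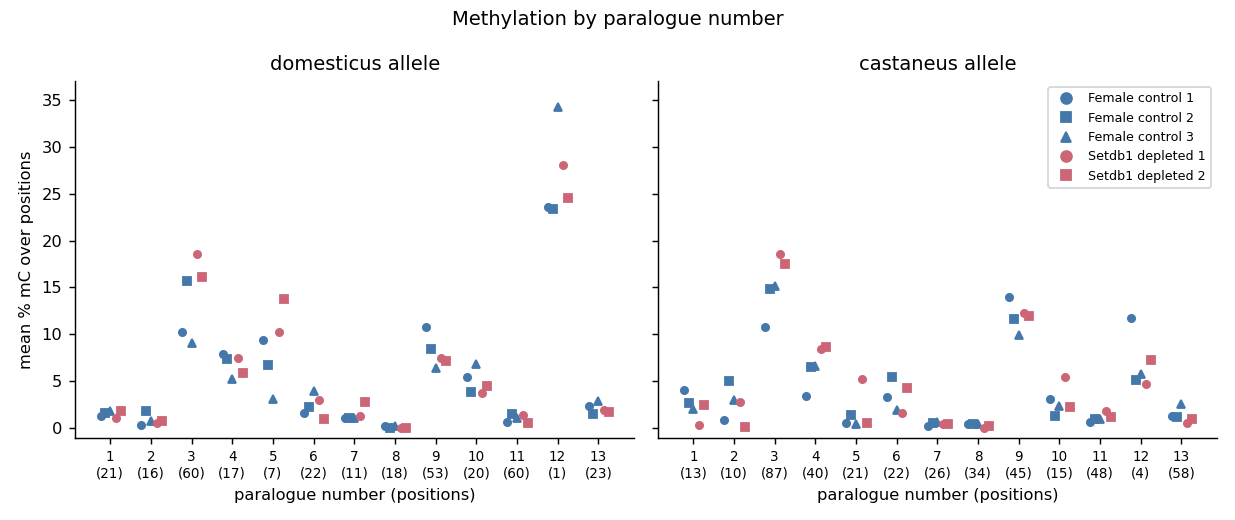
Mean % mC over positions (y axis) by paralogue number, with the number of positions in brackets (x axis), 1 point per library, blue for Female control and red for Setdb1 depleted, domesticus allele left and castaneus allele right. Numbers 3 and 9 stand above their neighbours on both alleles, and number 12 on domesticus is 1 position.

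Grouped as anterior (1-3), central (4-8) and posterior (9-13), the anterior mean was above the central one by 5.81 points on domesticus and 9.85 points on castaneus. Anterior minus posterior was 4.87 and 8.30 points, and central minus posterior -0.937 and -1.54 points. Within the anterior group only number 3 was high, since numbers 1 and 2 averaged 1.60 and 1.01% in the domesticus controls and 2.93 and 2.97% on castaneus. Positions in windows of different groups counted in both. The anterior and central groups held 97 and 75 domesticus positions, 159 together, and 110 and 143 castaneus positions, 210 together. Each held in 5 of 5 libraries on each allele (exact sign-flip permutation p = 0.062, adjusted p = 0.062 over 6 tests). With more than 20 calls, anterior minus posterior on domesticus was 2.46 points (exact sign-flip permutation p = 0.25) and central minus posterior -2.50 and -3.14 points. With at least 40 calls, anterior minus central on castaneus was 4.38 points and anterior minus posterior 2.31 points. Without the Hoxd3 window, anterior minus central was 0.179 points on domesticus and 3.86 points on castaneus, and anterior minus posterior -1.59 and 0.975 points. When each position was given to its nearest annotated start, and so counted once, central minus posterior on castaneus turned to 1.11 points. The other 5 differences kept their direction.

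Within the windows, positions up to 1 kb from an annotated start of a member were less methylated than the rest. On domesticus the proximal positions averaged 4.08% ± 1.03 and the distal ones 7.33% ± 0.645 in the controls, and on castaneus 3.75% ± 0.489 and 11.7% ± 0.324. Proximal was lower in 5 of 5 libraries on each allele, by 2.04 and 7.44 points (exact sign-flip permutation p = 0.062 on each). The domesticus gap was -5.03 points without the Hoxd3 window and -3.32 points with more than 20 calls. On domesticus the gap was narrow in the depleted libraries, at -0.343 and -0.108 points, against -4.47, -1.69 and -3.59 points in the controls, without overlap (exact permutation p = 0.2, adjusted p = 0.4 over 2 tests). The change was 3.03 points, and 1.35 points without the Hoxd3 window. On castaneus the groups overlapped, with -4.40 and -9.04 points after depletion against -8.30, -7.98 and -7.49 points in the controls (exact permutation p = 0.7, adjusted p = 0.7 over 2 tests), and depleted library 2 had the widest gap of the 5. The castaneus level difference was -3.82 points with at least 40 calls. Stretches below 5% in the controls had a median of 25 CpGs in the 300 bp around them on each allele, and the others 18 on domesticus and 19 on castaneus. Across 25 domesticus stretches the control level and the CpG number had Pearson r = -0.461 and Spearman rho = -0.631, and across 37 castaneus stretches r = -0.343 and rho = -0.553. This is a description across stretches, which share libraries and in part windows.

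**Figure D5:**
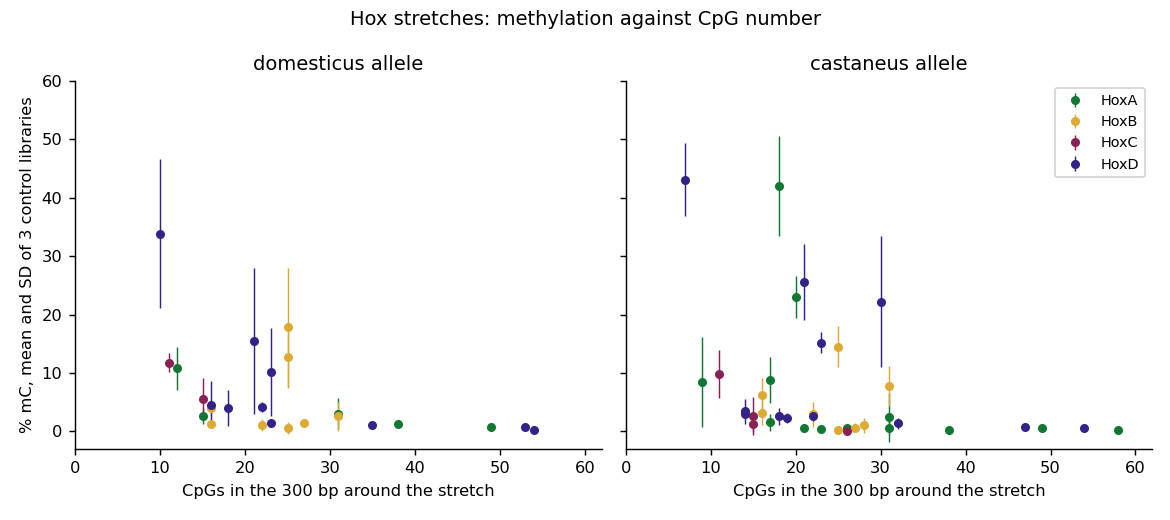
Control level of each Hox stretch with at least 3 positions (y axis, % mC, mean and SD of 3 libraries) against the number of CpGs in the 300 bp around it (x axis), coloured by cluster, domesticus allele left and castaneus allele right. Stretches with over 35 CpGs all lie near 0, and the high ones have fewer.

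At the 202 positions read on both alleles, domesticus was lower than castaneus by 1.21 points (SD 0.224, n = 5), in 5 of 5 libraries (exact sign-flip permutation p = 0.062, adjusted p = 0.156 over 5 tests), from -0.880 to -1.48 points, and it was -0.698 points without the Hoxd3 window. By cluster the difference was -0.600 points in HoxA, -1.92 in HoxB, 0.371 in HoxC and -1.26 in HoxD. Between the groups the overall difference changed by -0.325 points (exact permutation p = 0.2, adjusted p = 1), and its direction turned with more than 20 calls (0.267), with at least 40 calls (2.10) and with calls pooled (1.40). Of 23 shared stretches with at least 3 positions, castaneus was higher in all 5 libraries in 3 and domesticus in none, and in none did the alleles separate without overlap. The 3 stretches with the largest difference were all in Hoxd3. At chr2:74740444-74740504 domesticus averaged 14.3% ± 8.24 and castaneus 20.6% ± 10.6 over the 5 libraries, castaneus being higher in 4. At chr2:74736447-74736504 they averaged 19.1% ± 10.4 and 25% ± 4.84, and at chr2:74738998-74739066 42.6% ± 19.3 and 48.0% ± 8.20, castaneus being higher in 4 and 3 libraries. These differences did not exceed the spread between libraries (exact sign-flip permutation p = 0.188, 0.25 and 0.375, adjusted p = 0.523, 0.523 and 0.719 over 23 stretches).

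Other genes of the pathway did not pass the test either. Of 30 Polycomb and trithorax regulators of Hox genes tested on domesticus and 31 on castaneus, none passed, with median differences of 0 and 0.0574 points. Of the Meis, Pbx and related TALE cofactors, with which Hox proteins bind DNA, 10 were tested on each allele and none passed (median 0.0399 and -0.0622 points). Of the other transcripts that lie inside the clusters, 9 and 8 were tested and none passed (median -0.311 and 0.180 points). Their differences ran from -1.83 to 19.2 points on domesticus and -2.89 to 30.3 points on castaneus. Hoxaas3, Hoxb5os, Hoxb3os and Hoxa11os overlap member genes, so their windows hold some of the same positions and are not independent of the members. Of the genes that flank the clusters, 6 and 8 were tested, with none passing (median 1.48 and 0.484 points). Flanking genes had control medians of 42.2 and 44.8% mC, against 4.27 and 3.71% for the transcripts inside the clusters. Of other homeobox regulators, 84 and 86 were tested (median -0.128 and 0.115 points), and of forkhead, T-box, Sox and Gata genes 50 on each allele (median -0.0478 and -0.454 points), and none passed. At an unadjusted p under 0.05 stood 7 of the 84 homeobox regulators on domesticus (1 higher, 6 lower) and 4 of 86 on castaneus (2 higher, 2 lower). Of the transcripts inside the clusters, none of 9 stood there on domesticus and 3 of 8 on castaneus (1 higher, 2 lower). Of the forkhead, T-box, Sox and Gata genes 4 of 50 did on each allele, of the Polycomb and trithorax regulators and the flanking genes 1 each on each allele, and of the TALE cofactors none. Among all windows the share was 4.54% on domesticus and 4.42% on castaneus.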

How the data were processed

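eRRBS libraries of 3 Female control and 2 Setdb1 depleted MEF samples were analysed. The deposited values are methylation calls by read (Z methylated, z unmethylated), not normalised. The authors trimmed the reads (Trim Galore), used Bismark for alignment to an mm10 genome N-masked at strain SNPs, removed 7 5′ and 8 3′ bases, assigned reads to alleles with SNPsplit and extracted CpG calls with Bismark (0.13.0, per the file headers). CASAVA 1.4 is named in the submitters' processing notes. Removal of PCR duplicates is not given in the sources used here, and reads are not independent molecules, so limits given for a 0 cover counting error only.

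Calls were summed per position, library and allele, and 98.9 and 98.8% of called positions were reference CpGs. Positions needed at least 10 calls in every library, a lower minimum than the more than 20 of the study, which was an alternative. Cluster and paralogue means weight positions equally and were tested by exact permutation of 5 libraries. Windows, stretches and positions were tested with a quasi-binomial logistic model whose dispersion was moderated across all features with limma 3.58.1 (R 4.3.3), with Benjamini-Hochberg adjustment over all features of an allele, in place of the t-test of the study. On simulated data of the 18956 domesticus stretches, the model recovered 91.5, 47 and 1% of 200 stretches shifted by 1.5 on the logit scale at within-library correlations of 0.002, 0.01 and 0.03. It made 25, 3 and 1 false calls there. The correlation in the real libraries was not estimated, so the power to find a Hox difference is not known. Replicate libraries differed by more than sampling noise (mean chi-square per position 2.73 to 3.75), so no pair was averaged as 1 library. This does not show that they came from separate cultures. Named items are, on each allele, the highest and lowest member of each cluster, the 5 members and 5 stretches with the largest group difference, the 6 highest stretches and the 3 with the largest allele difference. Members and lists were chosen with earlier results of these data known. Alternatives were other minimums of calls, pooled calls, both strands summed, reads marked by the sequencer (5.34 to 5.66% of calls) left out, another window, a gap of 300 bp, other tests, each library left out, a replicate block and, chosen after seeing the data, the Hoxd3 window left out. The sequence of 1 other stretch is not reported here.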

Additional observations from a re-analysis of the deposited data

How the results depend on the processing

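No Hox gene, stretch or position passed with limma, with more than 20 calls or with the replicate block. Fisher's exact test called 3 of 18 genes, 5 of 25 stretches and 6 of 312 positions on domesticus, against 18.8, 10.2 and 2.48% of all. On castaneus it called 12 of 24, 10 of 37 and 9 of 377, against 19.1, 10.4 and 2.48%. The cause of the turns below was not tested. Without the Hoxd3 window, the domesticus difference between the groups became -0.606 points for all Hox positions and -0.543 for HoxD (castaneus -0.0631), and that relative to other homeobox, forkhead-class and all other windows -0.273, -0.747 and -0.610. Levels against the other clusters became 0.590 (HoxA), 1.46 (HoxB) and -2.97 (HoxD) on domesticus and 0.826, 2.63 and -3.44 on castaneus, with HoxC 2.20. Paralogues 1-3 minus 9-13 became -1.59 on domesticus, the HoxD allele difference 0.311 and its change -0.987. With more than 20 calls, HoxA and HoxC differences on castaneus became -0.247 and -0.472, HoxB against other clusters 0.117 on domesticus and 1.53 on castaneus, and the change of the allele difference 0.267 (HoxC 2.37). With at least 40 calls, the difference became 0.00399 for HoxA and -0.260 for HoxC on domesticus and -0.216 for HoxA on castaneus, HoxB against other clusters 1.70 and 2.27, HoxC against other clusters -2.89, the HoxA allele difference 0.0718 and the change of the allele difference 2.10. With calls pooled, the castaneus HoxA difference became -0.293, that against forkhead-class genes -0.182, HoxB against other clusters 0.544 and 1.61, and the change of the allele difference 1.40. Summing strands gave -0.0331 for HoxA on castaneus, and nearest starts 1.11 for paralogues 4-8 minus 9-13.

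Leaving out each library in turn, the HoxA difference ranged from -1.02 to 0.227 on domesticus and -0.346 to 0.548 on castaneus, and the castaneus HoxB difference from -1.32 to 0.279. On castaneus, HoxB against other clusters ranged from -0.868 to 0.267, HoxC from -1.13 to 0.327, and the change of proximal minus distal from -1.12 to 3.53. The HoxC allele difference ranged from -0.232 to 1.88, and its change with depletion from -1.11 to 1.38 (HoxA), -1.92 to 0.461 (HoxB), -7.29 to 1.01 (HoxC) and -1.09 to 1.38 (HoxD). Domesticus calls ranged from 0 to 1 gene and 0 to 2 stretches, those without control 2. The Hoxb3 difference ranged from -8.87 to 1.30 and that of Hoxd10 from -0.406 to 5.79. Without depleted library 1, the castaneus difference was 5.23 points for Hoxd3, 3.51 for its stretch at chr2:74740444-74740505, 1.40 for HoxD and 0.266 for Hoxc5, and that of Hoxc4 on domesticus was -3.74. Without control 1 the difference was 8.42 points for Hoxd4 on castaneus, 7.10 for its coding-exon stretch and -1.44 for Hoxb9 on domesticus. The groups share only 2 replicate numbers, and correlations of same-numbered deviations did not mark pairs (-0.0561 to 0.0583). With the replicate block the Hox difference was 0.300 points on domesticus and 0.977 on castaneus, and the change of the allele difference turned to -0.326 in HoxA and -0.276 in HoxD.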

Other observations

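Between the member windows, 21 domesticus and 14 castaneus stretches of the clusters could be tested, and 4 on each allele exceeded 20% in the controls. The following stretches were named after their values were seen. A stretch between Hoxb13 and Hoxb9, in a non-coding exon of Gm53 at chr11:96264283-96264332, read 19.3, 17.9 and 17.3% in the controls and 44.2 and 52.8% after depletion on castaneus (quasi-binomial model with limma moderation, p = 0.000136, adjusted p = 0.0977 over all stretches). On domesticus, at chr11:96264283-96264365, it read 22, 21.8 and 20.5% against 23.7 and 40.7%, both depleted libraries lying above the controls (quasi-binomial p = 0.0273, adjusted p = 1). A stretch in no annotated gene at chr11:96231322-96231399 was methylated at 77.7 to 83.2% on domesticus, where the groups overlapped. On castaneus it read 90.3, 93.6 and 88.7% against 86.8 and 83.6%, both depleted libraries being lower (quasi-binomial p = 0.12, adjusted p = 1). A stretch in a non-coding exon of Hoxb3os at chr11:96354676-96354723 also read lower after depletion on castaneus, at 9.22, 4.71 and 2.42% against 1.04 and 0% (upper limit 0.836%, quasi-binomial p = 0.00658, adjusted p = 0.832), and the groups overlapped on domesticus. At chr6:52168793-52168829, in a non-coding exon of Hoxaas2, castaneus read 18.2, 28.6 and 51.0% against 54.6 and 48.9%, and control 3 lay between the depleted libraries.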
